A study of Homo sapiens with 6 samples.

Results

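The genes described here encode the nuclear subunits of respiratory complex I, in its catalytic core and around it, and the assembly factors that carry the NDUFAF symbol. They were taken from the count table by symbol: NDUFA, NDUFB, NDUFC, NDUFS, NDUFV or NDUFAB followed by a digit, or NDUFAF followed by a digit. This rule matched 51 of the 23152 genes in the table. Of these, 37 are subunits of complex I, 7 in its catalytic core and 30 supernumerary, and 8 are NDUFAF assembly factors. The other 6 symbols are not part of the enzyme. NDUFA4 is now placed in cytochrome c oxidase, NDUFA4L2 is a relative of NDUFA4, and NDUFA6-DT, NDUFB2-AS1, NDUFV2-AS1 and NDUFV1-DT are divergent or antisense transcripts. All 37 subunits and all 8 assembly factors were sufficiently counted to be tested, as were 50 of the 51 symbols.

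The study asked how RNF112, a RING-type E3 ubiquitin ligase, acts on bladder cancer cells. Messenger RNA was sequenced from 3 samples of T24, an established human bladder cancer cell line, carrying vector, and from 3 T24 samples overexpressing RNF112 (oeRNF112). The study's methods describe both a Flag-tagged RNF112 plasmid delivered by lipofection and a T24 line made with lentivirus and selected for stable overexpression, and do not say which was sequenced, whereas the submitted treatment note mentions siRNA. How uniform expression was among the cells is therefore unknown. Neither the time between RNF112 delivery and harvest nor the origin of the replicates from separate cultures is given, so p-values measure the spread between these samples, which may be technical.

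Complex I, NADH:ubiquinone oxidoreductase, takes electrons from NADH at the tip of its matrix arm (the N module), passes them along iron-sulfur clusters to ubiquinone (the Q module) and pumps protons across the inner mitochondrial membrane through its membrane arm. The catalytic core of the matrix arm is encoded in the nucleus and that of the membrane arm by the mitochondrial ND genes, so the complex needs messages from both genomes. Supernumerary subunits surround the core and stabilize it, while assembly factors help to build the modules and are not part of the finished enzyme.

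Sequencing depth was similar between samples, with library totals from 40029547 to 41259569 counts. TMM factors, which correct library totals for RNA composition, ranged over 0.957 to 0.988 for the vector libraries and 1.01 to 1.05 for oeRNF112. RNF112 itself had 27, 19 and 24 counts in vector and 29753, 36963 and 31712 counts in oeRNF112, which follows the labels. Across all 14467 genes tested, 8.14% were called lower and 9.97% higher in oeRNF112 at an adjusted p under 0.05, and the median of their log2 fold changes was 0.003. When samples were scaled by library totals instead, this median moved to 0.10, and 2020 genes were called higher and 659 lower, beside 1442 and 1178. The keratins KRT7, KRT8, KRT18 and KRT19 were abundant, as in an epithelial line, while EPCAM had 66 to 183 counts. Of 6 genes in the table listed as markers of differentiated urothelium, CDH1 and UPK3A had at most 1 count in any sample and UPK2 at most 7. CDH1, the E-cadherin gene, marks epithelia in general and was counted in this list, not with the epithelial markers. UPK1A had 4 to 20 counts, GATA3 117 to 173 and PPARG 2056 to 2485. Summed levels of 5 epithelial markers were 3527 to 4545 CPM (counts scaled to a common library size with the TMM factors) in vector and 2707 to 3249 CPM in oeRNF112, with KRT7 and KRT18 called lower and EPCAM higher. Those of the 6 urothelial markers were 56.8 to 62.3 CPM in vector and 62.7 to 64.9 CPM in oeRNF112, with none of the 3 tested called. Summed levels of 6 leukocyte markers were 9.51 to 10.8 CPM in vector and 5.42 to 8.10 CPM in oeRNF112, with 1 of them, LAPTM5, called lower. For 6 fibroblast markers they were 7.03 to 9.79 CPM in vector and 10.2 to 11.4 CPM in oeRNF112, with PDGFRA, at most 29 counts, called higher. The T cell marker CD3E and the fibroblast markers DCN and COL1A2 were at 0 in most samples. Other members of these lists were counted in every sample, with 262 to 421 counts for COL1A1, 108 to 293 for LAPTM5 and 53 to 91 for CD14. The part of such markers in the results was not tested.

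In RNF112-overexpressing T24 cells, every one of the 37 complex I subunits had a fitted value below that of vector, with a median log2 fold change of -0.33, or 79.8% of the vector level. With library totals this held for 36 of 37, with NDUFV2 at 0.00465, and the subunit median was -0.23 beside 0.10 for all genes. The values ran from -0.53 for NDUFB2 to -0.09 for NDUFV2, with quartiles of -0.40 and -0.23. The test was passed by 6 subunits, which is 16.2% of them beside 8.14% of all genes tested: NDUFA9, NDUFV1, NDUFA2, NDUFA1, NDUFB2 and NDUFA10. Fitted values are log2 fold changes of oeRNF112 over vector from edgeR's quasi-likelihood test. Their standard error (SE) was derived from that test, as the absolute log2 fold change over the square root of its F statistic. The 8 NDUFAF assembly factors had a median of -0.06 (0.03 with library totals) and none passed the test in either direction. These values rest on 3 samples a group in which replicate 2 of each group stood apart, as given further on, and which subunits passed depended on the samples included. In a sample of cultured cells, less of these messages per cell and a smaller share of cells carrying them cannot be told apart.

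**Figure D1:**
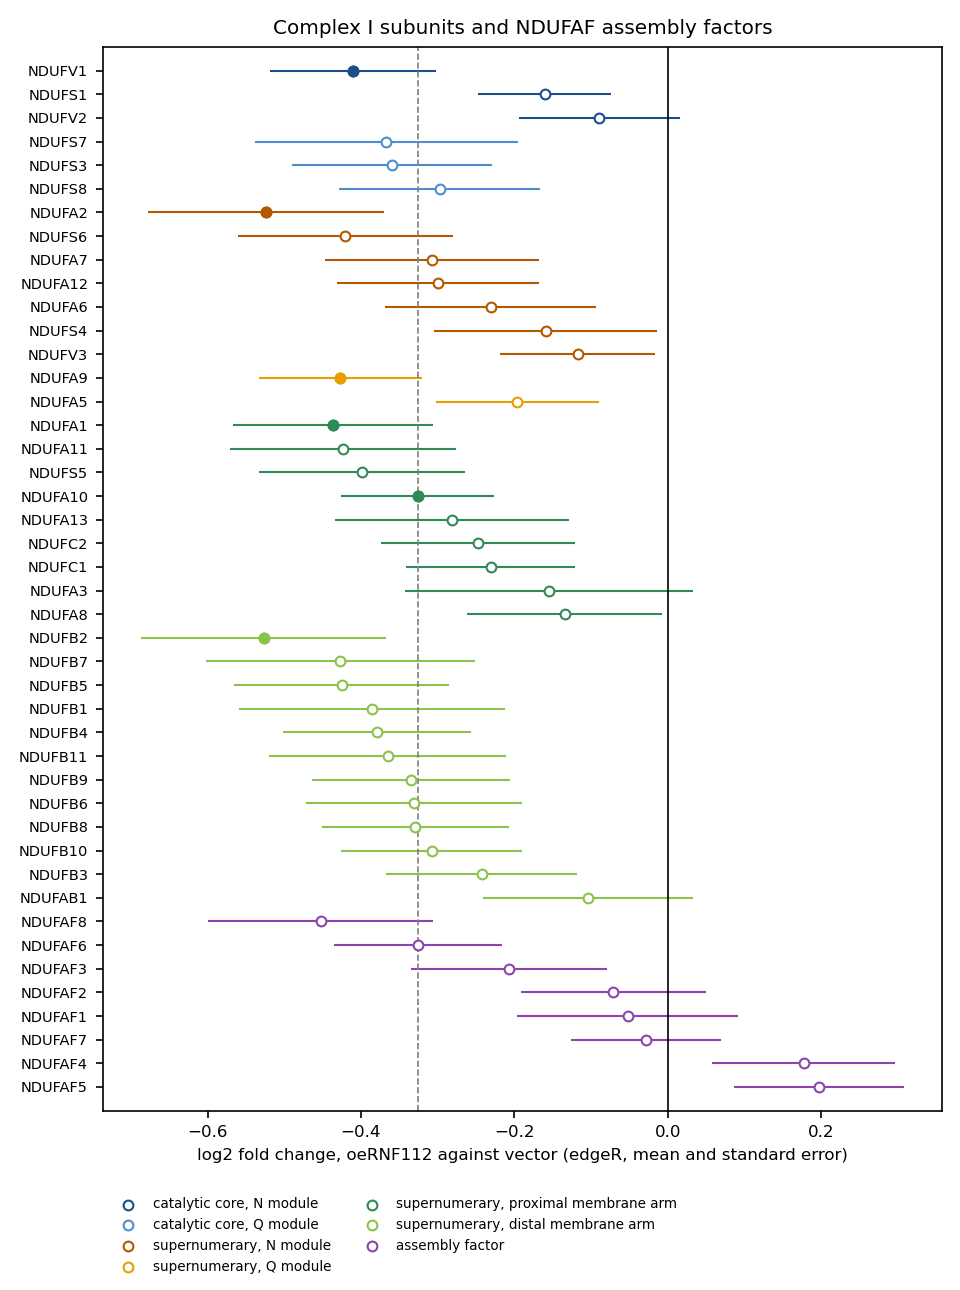
The fitted log2 fold change of 36 subunits and 8 NDUFAF assembly factors in oeRNF112 against vector is plotted on the horizontal axis with the standard error, grouped by class, with filled points for an adjusted p under 0.05 and a dashed line at the subunit median. All 36 subunits drawn lie left of 0 (all but NDUFV2 with library totals), 6 of them filled, while the assembly factors lie on both sides, from -0.45 to 0.20.

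The 6 subunits that passed the test sit in different places of the enzyme and on 6 chromosomes. In the RefSeq annotation of GRCh38, NDUFV1 lies at chr11:67606936-67612554, NDUFA2 at chr5:140645285-140647630, NDUFA9 at chr12:4649114-4694317, NDUFA1 at chrX:119871832-119876662, NDUFA10 at chr2:239892442-240025342 and NDUFB2 at chr7:140696708-140706643. Because these genes were lower together, the bases just before their starts of transcription are shown, from RefSeq (GRCh38.p14), for the 3 whose upstream window holds a stretch outside annotated untranslated regions. Each is written 5′ to 3′ on the strand of the gene: NDUFA9 at chr12:4649048-4649100 (plus strand), NDUFA10 at chr2:240025403-240025522 (minus strand) and NDUFB2 at chr7:140696551-140696670 (plus strand). Capitals mark a match to the cyclic AMP response element TGACGTCA.
NDUFA9: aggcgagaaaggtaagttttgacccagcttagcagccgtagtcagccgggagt
NDUFA10: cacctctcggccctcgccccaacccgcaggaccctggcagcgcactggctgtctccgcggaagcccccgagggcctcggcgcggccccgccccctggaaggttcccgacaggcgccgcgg
NDUFB2: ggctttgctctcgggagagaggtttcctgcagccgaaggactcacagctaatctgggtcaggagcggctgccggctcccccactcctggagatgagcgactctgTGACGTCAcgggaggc
The printed stretch of NDUFB2 is the only one of the 3 with a match to a motif searched, and that match starts 53 bases before the start. The same TGACGTCA lies 48 bases before the start of NDUFA10, outside its printed stretch. This motif was added to the search after the letters had been seen.

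Promoter windows of 250 bases before to 50 bases after the start were found for 32 subunits and 7 NDUFAF factors, and were searched on both strands for motifs of factors known to act on respiratory genes. The YY1 motif AAGATGGC was found in 6 subunit windows (18.8%, beside 3.03% of all 27305 windows in the table and 5.19% of the windows of tested genes). The NRF1 core GCATGCGC was found in 5 (15.6%, beside 3.27% and 5.54%), and the ERRA half-site AAGGTCA in 4 (12.5%, beside 3.97% and 2.50%). Matches to the ETS motif CCGGAAG, at 15.6%, and to the E-box CACGTG bound by MYC, at 9.38%, were near the shares of tested genes, 18.9% and 9.82%, and of all windows, 10.7% and 7.43%. TGACGTCA was found in 2 subunit windows, those of NDUFA10 and NDUFB2 (6.25%, beside 1.98% of all windows and 3.15% of those of tested genes). Since it was added to the search after the letters had been seen, this share is no support for an excess. These motifs do not contain one another, and a match describes letters and not a bound site. Among the 6 lower subunits, NDUFA9 had a YY1 match 11 bases after its start and NDUFA1 an ETS match 47 bases before it, while NDUFV1 and NDUFA2 had no match in their windows.

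In the N module, where NADH is oxidized, the core subunit NDUFV1 carries the FMN that accepts the electrons. Its level was 132, 126 and 158 CPM in vector and 107, 111 and 95.1 CPM in oeRNF112. All oeRNF112 samples lay below all vector samples, and the fitted log2 fold change reached -0.41 (SE 0.108 and adjusted p = 0.0279), or 75.2% of vector. NDUFS1, the largest iron-sulfur subunit of this module, had 160.3, 161 and 140.2 CPM in vector and 139, 135 and 139 CPM in oeRNF112. Its groups did not overlap, but the vector values spread by more than the distance between vector replicate 3 and the oeRNF112 samples, and the fitted value was -0.16 (SE 0.0863 and adjusted p = 0.223). NDUFV2, which carries a further iron-sulfur cluster of the NADH-oxidizing tip, had 129, 109.5 and 132 CPM in vector and 113, 129 and 106 CPM in oeRNF112. Its groups overlapped, and its fitted value of -0.09 (SE 0.105 and adjusted p = 0.587) was the closest to 0 among the subunits.

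Around this tip sit 7 supernumerary subunits, with a median log2 fold change of -0.30. Only NDUFA2, a small thioredoxin-like subunit, passed the test among them (14.3%, beside 8.14% of all genes tested). It had 54.8, 44.2 and 61.6 CPM in vector and 37.4, 43.9 and 30.4 CPM in oeRNF112, and its fitted log2 fold change reached -0.52 (SE 0.154 and adjusted p = 0.0413). The groups were parted only narrowly, since vector replicate 2 and oeRNF112 replicate 2 differed by less than 1 CPM. Fitted values of the other 6 were -0.42 for NDUFS6, -0.31 for NDUFA7, -0.30 for NDUFA12, -0.23 for NDUFA6, -0.16 for NDUFS4 and -0.12 for NDUFV3. The groups overlapped for each of these. NDUFS4 and NDUFS6 are needed for a stable N module, and NDUFA12 takes the place that the assembly factor NDUFAF2 holds before the enzyme is complete.

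The Q module reduces ubiquinone. NDUFA9, a subunit at the junction of the arms that resembles short-chain dehydrogenases, had the smallest p of all members. Its level was 98.5, 83.8 and 103 CPM in vector and 74.1, 74.5 and 63.5 CPM in oeRNF112. Every oeRNF112 sample was below every vector sample, and the fitted log2 fold change reached -0.43 (SE 0.106 and adjusted p = 0.0224), or 74.4% of vector. The core subunits NDUFS3, NDUFS7 and NDUFS8 did not pass the test. NDUFS3 had 53.8, 44.0 and 61.3 CPM in vector and 40.9, 45.8 and 37.4 CPM in oeRNF112, a fitted value of -0.36 (SE 0.131 and adjusted p = 0.0844). NDUFS7, which lies next to the quinone site, had 23.99, 21.5 and 32.0 CPM and 20.0, 23.8 and 16.4 CPM, with a fitted value of -0.37 (SE 0.171 and adjusted p = 0.166). NDUFS8, an iron-sulfur subunit, had 67.8, 62.9 and 82.1 CPM and 56.5, 66.5 and 50.1 CPM, with a fitted value of -0.30 (SE 0.131 and adjusted p = 0.145). In all 3 genes vector replicate 2 lay below oeRNF112 replicate 2, so the groups overlapped. NDUFA5, a supernumerary subunit of this module, had a fitted value of -0.20.

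The 9 subunits of the proximal membrane arm had a median log2 fold change of -0.28, and 2 of them passed the test (22.2%, beside 8.14% of all genes tested). NDUFA1, a short subunit needed for assembly of the membrane arm, had 99.8, 77.1 and 99.7 CPM in vector and 67.6, 77.5 and 59.2 CPM in oeRNF112. Vector replicate 2 and oeRNF112 replicate 2 had nearly the same level, so the groups overlapped, and the fitted log2 fold change reached -0.44 (SE 0.130 and adjusted p = 0.0444). NDUFA10, which resembles nucleoside kinases, had 82.0, 74.4 and 90.5 CPM in vector and 68.5, 67.9 and 60.5 CPM in oeRNF112. Its groups did not overlap, and the fitted log2 fold change reached -0.33 (SE 0.10 and adjusted p = 0.0484), or 79.8% of vector. The other 7 ranged from -0.42 for NDUFA11 through -0.40 for NDUFS5, -0.28 for NDUFA13, -0.25 for NDUFC2, -0.23 for NDUFC1 and -0.15 for NDUFA3 to -0.13 for NDUFA8, none past the test. NDUFS5, on the side of the intermembrane space, was the most abundant member per length, and its level was 169, 138 and 186 CPM in vector and 126, 142 and 106 CPM in oeRNF112, with a fitted value of -0.40 (SE 0.134 and adjusted p = 0.0663). NDUFC2 overlaps the readthrough gene NDUFC2-KCTD14, so its count is uncertain.

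The distal membrane arm holds 12 subunits of this table, the NDUFB family and the acyl carrier protein NDUFAB1, with a median log2 fold change of -0.35. NDUFB2, a small subunit of the membrane, was the only one that passed the test (8.33%, beside 8.14% of all genes tested). NDUFB2 had the lowest fitted value of all subunits. It had 63.5, 46.0 and 65.2 CPM in vector and 38.3, 48.7 and 34.3 CPM in oeRNF112. Vector replicate 2 lay below oeRNF112 replicate 2, while the other 2 vector samples were above all oeRNF112 samples, and the fitted log2 fold change reached -0.53 (SE 0.160 and adjusted p = 0.0467). Without passing the test, NDUFB7 had a fitted value of -0.43, NDUFB5 of -0.43, NDUFB1 of -0.39, NDUFB4 of -0.38 and NDUFB11 of -0.37. NDUFB9, NDUFB6, NDUFB8, NDUFB10 and NDUFB3 had fitted values of -0.33, -0.33, -0.33, -0.31 and -0.24. Among these, NDUFB4 was the one whose groups did not overlap, with 97.9, 80.2 and 101 CPM in vector and 74.5, 78.9 and 61.4 CPM in oeRNF112. NDUFAB1, which also serves mitochondrial fatty acid synthesis and iron-sulfur cluster formation, had a fitted value of -0.10.

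By arm of the enzyme, the medians were close to each other: -0.27 over 10 subunits of the N module, -0.33 over 6 of the Q module, -0.28 over the 9 of the proximal and -0.35 over the 12 of the distal membrane arm. The catalytic core had a median of -0.30 with 1 of 7 called (14.3%). The supernumerary subunits had a median of -0.33 with 5 of 30 called (16.7%), beside 8.14% of all genes tested. At an unadjusted p under 0.05, 20 of the 37 subunits were lower, beside 16.0% of all genes tested. Groups that did not overlap, with oeRNF112 lower, were found for 6 subunits, NDUFV1, NDUFS1, NDUFA2, NDUFA9, NDUFB4 and NDUFA10. This share of 16.2% was close to the 17.9% of all genes tested, so complete separation of the groups was no more common among subunits than among other genes.

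The subunits moved together between samples, also within a group. Relative to the vector mean on the log2(CPM + 0.5) scale, the median of the 37 subunits was 0.06, -0.24 and 0.18 in vector and -0.32, -0.13 and -0.49 in oeRNF112. Vector replicate 2 therefore lay below oeRNF112 replicate 2. The medians of all genes tested stayed within 0.02 of 0 in each sample, which TMM scaling largely brings about. Against the mean of the other 2 vector samples, vector replicate 2 had a median difference of -0.36 over the subunits and was below both in 36 of 37. Replicate 2 of oeRNF112 differed from the other 2 oeRNF112 samples by 0.28 and was above both in 35 of 37 subunits. These distances within groups were about as large as the median difference between the groups. Summed over the 37 subunits, the level was 2994, 2511 and 3217 CPM in vector and 2327, 2634 and 2088 CPM in oeRNF112, and the ranges overlapped.

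**Figure D2:**
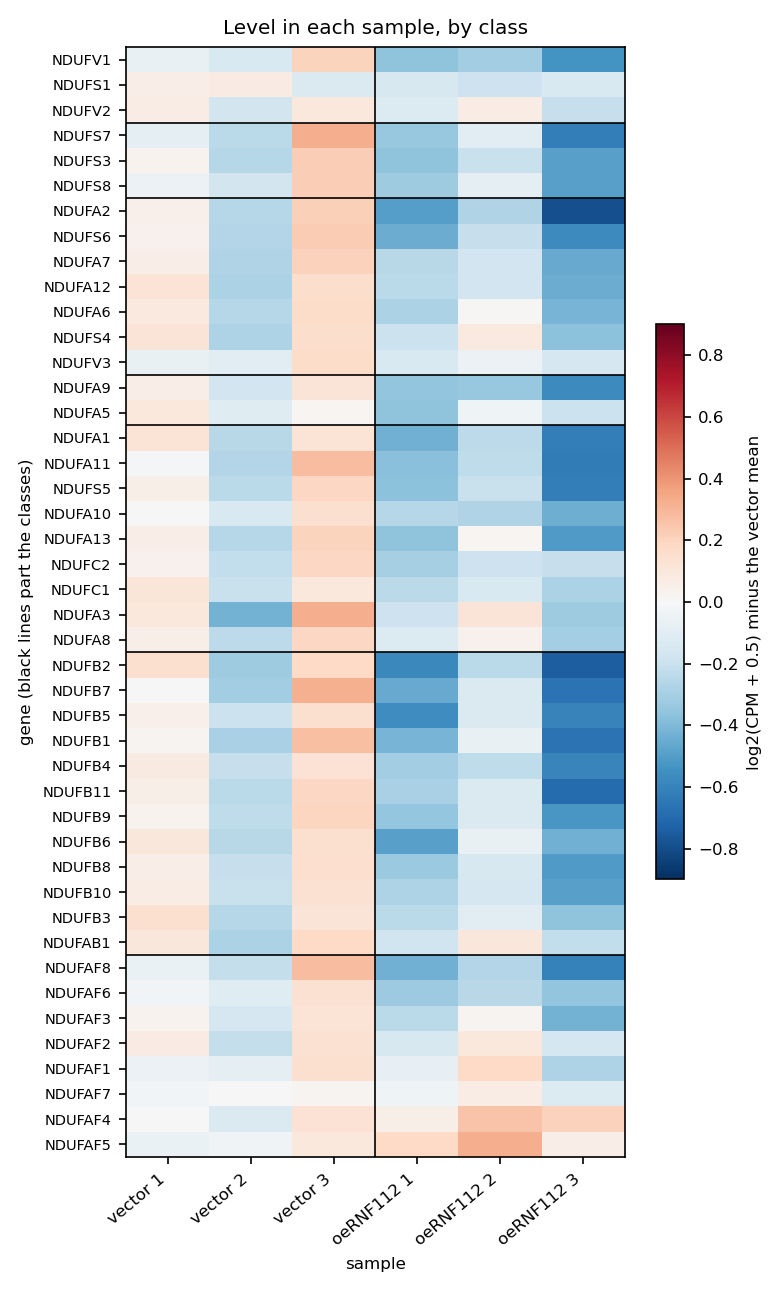
Each row is a subunit or NDUFAF assembly factor and each column a sample, and the colour gives log2(CPM + 0.5) minus the mean of the 3 vector samples, from blue (lower) to red (higher). Among subunits, vector replicate 2 is bluer than the other vector samples in 35 of 36 rows, and oeRNF112 replicate 2 lies above both other oeRNF112 samples in 34 of 36 rows.

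Which samples entered the fit decided how many members passed the test. Over the 51 symbols, 6 were called lower with all samples. Without vector replicate 2 there were 29, beside 10.5% of all genes tested in that fit, and without oeRNF112 replicate 2 there were 16, beside 6.86%. None were called when vector replicate 1, vector replicate 3, oeRNF112 replicate 1 or oeRNF112 replicate 3 was left out, fits in which 2.43%, 5.2%, 2.93% and 3.63% of all genes were called lower. With both samples numbered 2 left out, 33 of 37 subunits, 3 of 8 NDUFAF factors and NDUFA4 were called lower, beside 14.8% of all genes, and the subunit median was -0.53. That last setting was chosen after these samples had been seen to stand apart in the same genes, so its count is no support for a difference. All 6 called subunits kept their calls without vector replicate 2, and 5 of them, all but NDUFA10, without oeRNF112 replicate 2. With 1 sample left out, the subunit median lay between -0.43, without vector replicate 2, and -0.23, without vector replicate 3.

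The NDUFAF assembly factors spread to both sides of 0. NDUFAF8 and NDUFAF6 had the lowest values and were the ones whose groups did not overlap, but neither passed the test. NDUFAF8, a partner of NDUFAF5, had 19.9, 17.8 and 25.2 CPM in vector and 15.2, 17.2 and 13.4 CPM in oeRNF112, with a fitted value of -0.45 (SE 0.147 and adjusted p = 0.0586). NDUFAF6, required for an early step of membrane arm assembly, had 15.2, 14.3 and 17.0 CPM and 12.2, 12.9 and 11.9 CPM, with a fitted value of -0.33 (SE 0.110 and adjusted p = 0.0669). NDUFAF5, which hydroxylates NDUFS7, had 14.2, 14.5 and 15.8 CPM in vector and 16.9, 18.7 and 15.5 CPM in oeRNF112. Its groups overlapped and its fitted value was 0.20 (SE 0.110 and adjusted p = 0.242), the highest among the 45 subunits and factors. NDUFAF4, which with NDUFAF3 helps to build the Q module, had a fitted value of 0.18, and NDUFAF3 of -0.21. NDUFAF2, the chaperone of the late N module step, had 32.4, 26.4 and 33.8 CPM and 27.8, 32.9 and 27.5 CPM, with a fitted value of -0.07 (SE 0.121 and adjusted p = 0.718). NDUFAF1, part of the complex that assembles the ND2 region, had a fitted value of -0.05 and NDUFAF7, a protein methyltransferase, of -0.03. The factors shared the swing of replicate 2: on the same scale their median stood at -0.03, -0.12 and 0.13 in vector and at -0.11, 0.08 and -0.22 in oeRNF112. Whether factors and subunits differed in their response was not tested.

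Assembly factors without an NDUFAF symbol, 12 in all from a written list, had a median of -0.24 on the log2 scale. Of these, 10 had fitted values below 0, and 3 of the 12 were called lower, beside 8.14% of all genes tested. Groups without overlap, with oeRNF112 lower, were found for 5 of the 12, beside 17.9% of all genes tested. ACAD9, an acyl-CoA dehydrogenase that works in complex I assembly, had 64.0, 63.1 and 67.6 CPM in vector and 45.8, 47.8 and 47.9 CPM in oeRNF112. The groups lay well apart, without the swing of replicate 2 seen in the subunits, and the fitted log2 fold change reached -0.46 (SE 0.0829 and adjusted p = 0.00543). It was called in all 6 fits with 1 sample left out. DMAC2 and DMAC1, which act on the distal membrane arm, had fitted values of -0.38 (SE 0.115 and adjusted p = 0.0451) and -0.50 (SE 0.154 and adjusted p = 0.0488). DMAC2 had 32.6, 31.5 and 33.2 CPM in vector and 23.2, 29.1 and 22.3 CPM in oeRNF112, and DMAC1 had 28.3, 23.3 and 30.2 CPM and 18.3, 23.6 and 15.9 CPM. The groups of DMAC1 overlapped at the samples numbered 2, and both genes were called only without vector replicate 2 and without oeRNF112 replicate 2 among the fits with 1 sample left out. TMEM70, at 0.16, and COA1, at 0.05, were the 2 above 0, and TMEM126B joined them with library totals.

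Of the 7 mitochondrial ND genes, which encode the core of the membrane arm, 5 had fitted values below 0 (4 with library totals) and 1 passed the test. This share of 14.3% stood beside 8.14% of all genes tested that were called lower. ND3 had 625, 482 and 687 CPM in vector and 369, 304 and 394 CPM in oeRNF112. Its groups did not overlap, and the fitted log2 fold change reached -0.75 (SE 0.142 and adjusted p = 0.00687), a call kept in all 6 fits with 1 sample left out. ND2, at -0.39, and ND1, at -0.30, did not overlap between groups but did not pass the test, and ND5, ND4, ND4L and ND6 had fitted values of -0.42, -0.04, 0.10 and 0.13. Groups without overlap, with oeRNF112 lower, were thus found for 3 of the 7 (42.9%), beside 17.9% of all genes tested. Within vector the median of the ND genes was lowest in replicate 2 and highest in replicate 3, as for the nuclear subunits. These medians were 0.01, -0.06 and 0.06 on the log2(CPM + 0.5) scale relative to the vector mean. Single genes were split: ND1, ND2, ND3 and ND4 had this order, while ND4L, ND5 and ND6 were highest in replicate 2 and lowest in replicate 3. Within oeRNF112 the order of the ND medians was the reverse of that of the nuclear subunits. In oeRNF112 replicate 2, where the nuclear subunits were highest in their group, the ND genes were lowest, and their share of all counts was 0.755% beside 1.04% and 1.17% in the other oeRNF112 samples and 1.06% to 1.07% in vector.

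**Figure D3:**
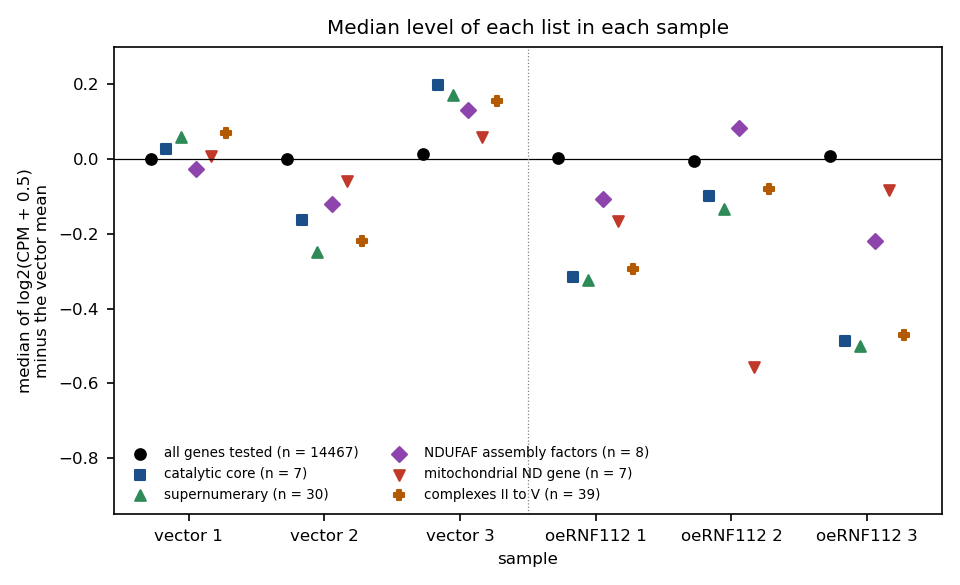
Points give, for each sample on the horizontal axis, the median over a gene list of log2(CPM + 0.5) minus the vector mean, for all genes tested, the catalytic core, the supernumerary subunits, the NDUFAF factors, the mitochondrial ND genes and complexes II to V. All-gene medians stay near 0, where TMM scaling largely puts them. Core and supernumerary medians run together with those of complexes II to V and lie lower in vector replicate 2 than in oeRNF112 replicate 2. The ND genes are lowest in oeRNF112 replicate 2.

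Fitted values below 0 were also found for the other complexes of oxidative phosphorylation. Of 39 nuclear subunits of complexes II to V, all 39 had fitted values below 0 (36 with library totals), with a median of -0.29. Of these, 7 were called lower (17.9%, beside 8.14% of all genes tested). Mitochondrial genes of these complexes were not in the list. Without vector replicate 2 there were 24 calls, beside 10.5% of all genes tested in that fit. Without vector replicate 1 or oeRNF112 replicate 1 there were none, beside 2.43% and 2.93%. There were 4 without vector replicate 3, 11 without oeRNF112 replicate 2 and 1 without oeRNF112 replicate 3, beside 5.2%, 6.86% and 3.63%. ATP synthase (complex V) held 6 of these 7 and had a median of -0.33, close to that of complex I. Cytochrome c oxidase (complex IV) and the cytochrome bc1 complex (complex III) had medians of -0.29 and -0.28 with none called, and succinate dehydrogenase (complex II) of -0.08 with 1 called. NDUFA4, counted with complex IV, had 142, 113 and 149 CPM in vector and 96.7, 120.4 and 89.8 CPM in oeRNF112, with a fitted value of -0.40 (SE 0.135 and adjusted p = 0.0681). The remaining symbols that the rule matched were little expressed: NDUFA4L2 was at most 1.96 CPM with a fitted value of 0.27, NDUFA6-DT, NDUFB2-AS1 and NDUFV2-AS1 were below 1 CPM in every sample, and NDUFV1-DT had at most 2 counts and was not tested.

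Regulators of respiratory genes, 10 from a written list, held 2 that passed the test. Both were higher, as were 9.97% of all genes tested. PPARGC1A, a coactivator of mitochondrial gene expression, had 28, 57 and 21 counts in vector and 85, 81 and 130 counts in oeRNF112, and its fitted log2 fold change reached 1.40 (SE 0.352 and adjusted p = 0.0231). PPARGC1B, its close relative, had 2.33, 2.95 and 1.66 CPM in vector and 4.75, 3.19 and 5.64 CPM in oeRNF112, and its fitted log2 fold change reached 0.97 (SE 0.260 and adjusted p = 0.0300). Their direction was thus opposite to that of the subunits, and each kept its call in 2 of the 6 fits with 1 sample left out. NRF1, which binds many respiratory promoters, had a fitted value of -0.21 (SE 0.0935 and adjusted p = 0.150). MYC, whose protein the study follows, had 81.8, 80.5 and 86.4 CPM in vector and 74.7, 78.9 and 77.0 CPM in oeRNF112, a fitted value of -0.11 (SE 0.0807 and adjusted p = 0.377), and ESRRA had a fitted value of 0.29 (SE 0.103 and adjusted p = 0.0766).

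Levels between genes were compared per length, as RPKM, in which counts are divided by gene length and by library total. In vector the highest member was NDUFS5, at 321 ± 42.7 RPKM (SD, n = 3), and the lowest NDUFAF5, at 2.27 ± 0.125 RPKM, a ratio of 141. The median was 59.2 RPKM over the subunits and 5.58 RPKM over the NDUFAF factors. In the catalytic core NDUFV2 was highest, at 98.1 RPKM, and NDUFS7 lowest, at 9.27 RPKM. Among supernumerary subunits NDUFV3 was lowest, at 5.44 RPKM, and among the factors NDUFAF2 was highest, at 47.2 RPKM. Such levels can be moved by copies of a gene: 21 of the members, 18 of them subunits, have 69 annotated pseudogenes in RefSeq, and reads could be split between them. Exons of 13 members overlap another gene on the same strand and those of 20 members a gene on the opposite strand, and how the counting treated strand is not given in the sources used here. Among the called subunits, NDUFV1, NDUFA9 and NDUFB2 have a same-strand overlap, and NDUFV1, NDUFA2, NDUFA1 and NDUFB2 an opposite-strand overlap.

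The length behind the RPKM, which is not the span of a gene on its chromosome, was short for most complex I subunits. Over all genes this length moved with the change. The median length behind the RPKM was 1313 bases for the subunits and 1960.5 for the NDUFAF factors, beside 3982 for all genes tested. The genes tested were divided into 4 equal classes of length. In the shortest class, from 111 to 2343 bases, which held 28 of the 37 subunits and 4 of the 8 factors, the typical gene had a log2 fold change of -0.11 (median), and in the longest class 0.08. By sample, the shortest class had medians of 0.02, -0.13 and 0.12 in vector and -0.10, 0.01 and -0.20 in oeRNF112, with the same samples lowest and highest as for the subunits and a smaller spread. Across genes, which are not independent and share the same libraries, Spearman's rho of length with log2 fold change was 0.19 over all genes tested and 0.24 over the 37 subunits. The subunit median of -0.33 was lower than that of the shortest class, and the part of gene length in it was not tested.

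**Figure D4:**
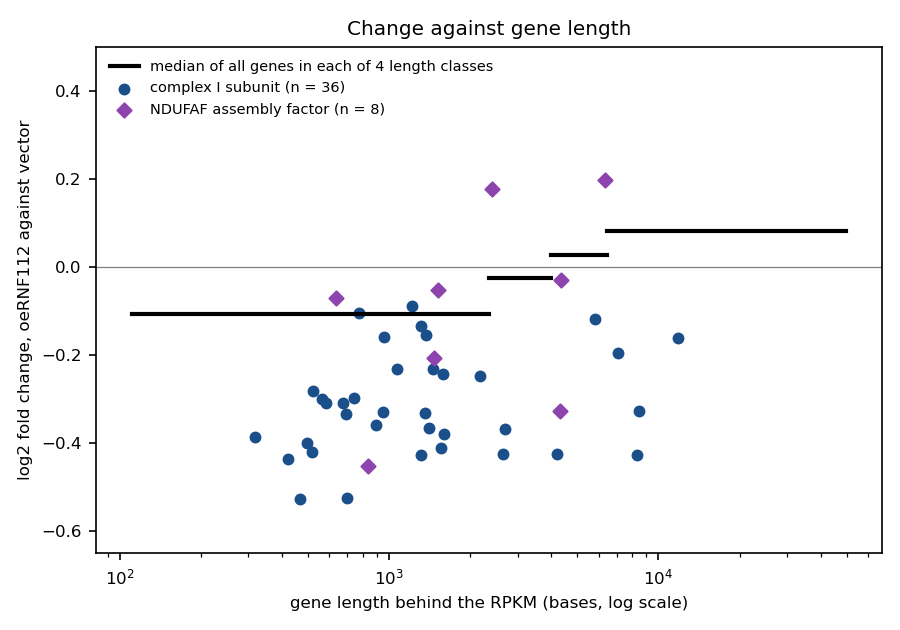
The fitted log2 fold change in oeRNF112 against vector is plotted against the gene length behind the RPKM in bases on a log scale for 36 subunits (circles) and 8 NDUFAF factors (diamonds), and black lines give the median of all genes in each of 4 equal length classes. The lines climb from -0.11 to 0.08 with length, and all subunits of the shortest class but 2 lie below its line.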

How the data were processed

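Messenger RNA was sequenced with a stranded kit from T24 cells, 3 samples with vector and 3 with oeRNF112. Raw counts for 23152 genes were deposited by the authors, together with a table of RPKM values, which they scaled by gene length and library total, since each RPKM matched the count over total and over a single length per gene within 1%. The submitters' processing notes name Trimmomatic 0.36, featureCounts of Subread 1.5.1 and GRCh38. The aligner, the annotation and the strand setting are not given in the sources used here.

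Groups followed the sample labels. The counts were analysed in R 4.3.3 by the quasi-likelihood test of edgeR 4.0.16, after filterByExpr and TMM scaling, with Benjamini-Hochberg adjustment over all 14467 genes tested, and a gene was called at an adjusted p under 0.05. Levels are CPM with TMM factors, and a count of 0 allows up to 3 counts in a sample, a limit that covers counting error only. Alternatives were DESeq2 1.42.0, its size factors, library totals, other filters, a replicate block, limma 3.58.1 on log2(RPKM + 1) and log2(RPKM + 0.1), each sample left out in turn and, added after the data had been seen, both samples numbered 2 left out. The fit was tested on simulated data, and counts of every pair of samples within a group differed by more than sampling noise.

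The members and all gene lists were chosen with earlier results of these data known. Full statistics were given by rule to every member with an adjusted p under 0.05 and, in the catalytic core, the supernumerary subunits and the NDUFAF factors, to the 3 members with the smallest p and those with the highest and lowest RPKM, which came to 16 members. Called genes among the other assembly factors, ND genes and regulators were named too. Values of the remaining members, and of single genes of those 3 lists that were not called, were added after they had been seen. Promoter windows came from a RefSeq table (GRCh38.p14). Windows of 5 subunits and 1 NDUFAF factor were not used here. Values of 1 subunit are not reported here singly or drawn by gene, although it is included in counts and medians over the 37.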

Additional observations from a re-analysis of the deposited data

How the results depend on the processing

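The subunit median stayed below 0 in every setting tried, from -0.53 with both samples numbered 2 left out, a setting added after the data had been seen, to -0.21 with limma on log2(RPKM + 1). The NDUFAF median, -0.06 in the reported fit, moved to -0.25 without those samples and turned positive with library totals (0.0318) and with limma on log2(RPKM + 1) (0.0271) and log2(RPKM + 0.1) (0.0289), with 3 of 8 factors below 0 in each. Calls depended on the setting. The number of members called lower, 6 in the reported fit, was 14 with DESeq2, 11 without a filter on low counts, 37 without both samples numbered 2, 1 with library totals and 0 with the replicate block and with limma on log2(RPKM + 1) or log2(RPKM + 0.1), and with 1 sample left out it ranged from 0 to 29. Over all genes, 1178 of 14467 were called lower in the reported fit, 1520 with DESeq2, 659 with library totals and 258 with the replicate block. With limma on log2(RPKM + 1) and log2(RPKM + 0.1) there were 669 and 682. Without a filter on low counts there were 1112 of 23152, and 2155 of 14554 without both samples numbered 2. With 1 sample left out, 2.43% to 10.5% of all genes were called lower. No member was called higher in any setting. Over all genes, 2620 were called in the reported fit, 876 with the replicate block, 4484 without both samples numbered 2, and 1061 to 3387 with 1 sample left out. With the replicate block none of the other assembly factors, regulators and subunits of complexes II to V was called either, with adjusted p = 0.0732 for ACAD9, 0.0600 for PPARGC1A and 0.0998 for PPARGC1B in edgeR, while ND3 kept its call (adjusted p = 0.0124). Deviations of same-numbered samples correlated at -0.18, -0.54 and -0.45, so these samples did not rise and fall together. Whether replicate numbers pair the samples is not given in the sources used here, and these correlations cannot decide it. Library totals moved the median of all genes to 0.10, with 2020 called higher and 659 lower. On those totals, and with limma on log2(RPKM + 1) and log2(RPKM + 0.1), the fitted values changed sign for NDUFV2 (0.00465, 0.00452 and 0.00456), NDUFAF1 (0.0400, 0.0288 and 0.0317), NDUFAF2 (0.0235, 0.0255 and 0.0260) and NDUFAF7 (0.0646, 0.0513 and 0.0620), none of them called. With 1 sample left out, values ranged over both signs for NDUFA3 (-0.34 to 0.0233), NDUFAF1 (-0.17 to 0.0576) and NDUFAF7 (-0.0677 to 0.0175). The cause of these changes was not tested. The size of the subunit difference, near the distance of replicate 2 from its group, limits what 3 samples a group can resolve.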
